A study of Mus musculus with 6 samples.

Results

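Interferon regulatory factors (IRFs) and signal transducers and activators of transcription (STATs) were measured in FAPs (fibro/adipogenic progenitors), stromal cells found between muscle fibres that can give rise to fibroblasts and fat cells. The genes were Irf1, Irf2, Irf3, Irf5, Irf7, Irf8, Irf9, Stat2 and Stat3, 9 of the 19938 genes on the array that had a probe set annotated to a single symbol. For Irf1, which had several such probe sets, the one with the highest mean was taken. The FAPs came from hindlimb muscle of wild-type male C57Bl/6 mice aged 8 to 12 weeks. Every mouse had been given a glycerol injury (30 µL of a 50% solution) in the tibialis anterior muscle. A vivo-morpholino (VMO), an antisense oligomer modified to enter cells in the animal, was injected 3 days later, and the cells were collected 2 days after that. The first group received 5'ss-VMO, aimed at a 5' splice site, the second group pA-VMO, aimed at polyadenylation sites, and the third group a control VMO. From what is known of the study, the target was the transcript of Pdgfra, a receptor for platelet-derived growth factor, of which a short form ends within an intron. There were 2 arrays for each VMO, and the cells on an array were pooled from 4 mice, so a group rests on 2 pools.

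IRFs are transcription factors that share a DNA-binding domain recognising GAAA repeats. Type I interferon bound to its receptor activates the kinases Jak1 and Tyk2, which phosphorylate STAT2. STAT2 and IRF9 are subunits of the factor ISGF3, which binds interferon-stimulated response elements. IRF3 and IRF7 are switched on by phosphorylation downstream of nucleic acid sensors and drive interferon genes. IRF1 acts mainly downstream of interferon gamma, IRF2 is its antagonist on many promoters, IRF5 and IRF8 are best known from myeloid cells and B cells, and STAT3 is the main factor downstream of interleukin-6 family cytokines. Stat2, Irf9, Irf7 and Irf1 are themselves interferon-induced genes.

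The promoters of 4 of these genes are shown to set beside their levels. Irf7 and Stat2 are the genes that rose in one comparison, Irf1 lay on opposite sides of control with the 2 reagents, and Irf2 differed little between groups. Each is the 250 bases before an annotated start, 5′ to 3′ on the gene's strand, from RefSeq on GRCm38.p6. Irf1 has a further annotated start, whose window is not shown and holds no match to the motifs below. The Irf7 window lies partly inside the annotated gene, whose 5′ end is at position 141266499. Capitals mark matches to the IRF core AANNGAAA, to a longer response element (GAAA, any 2 bases, GAAA), both searched on either strand, or to the STAT element TTCNNNGAA, which is its own reverse complement. The longer element contains the core, so every match to it is also a match to the core, and adjoining matches can merge into 1 stretch of capitals.
Irf7, chr7:141266425-141266674, minus strand: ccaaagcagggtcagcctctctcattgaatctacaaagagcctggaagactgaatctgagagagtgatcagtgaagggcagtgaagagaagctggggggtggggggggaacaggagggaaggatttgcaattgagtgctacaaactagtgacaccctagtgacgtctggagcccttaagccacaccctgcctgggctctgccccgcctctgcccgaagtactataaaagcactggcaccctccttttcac
Stat2, chr10:128270248-128270497, plus strand: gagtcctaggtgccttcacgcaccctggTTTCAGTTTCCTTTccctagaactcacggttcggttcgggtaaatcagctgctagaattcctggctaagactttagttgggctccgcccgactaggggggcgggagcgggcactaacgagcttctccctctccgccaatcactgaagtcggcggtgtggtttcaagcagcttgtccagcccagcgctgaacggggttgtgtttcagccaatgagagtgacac
Irf1, chr11:53769764-53770013, plus strand: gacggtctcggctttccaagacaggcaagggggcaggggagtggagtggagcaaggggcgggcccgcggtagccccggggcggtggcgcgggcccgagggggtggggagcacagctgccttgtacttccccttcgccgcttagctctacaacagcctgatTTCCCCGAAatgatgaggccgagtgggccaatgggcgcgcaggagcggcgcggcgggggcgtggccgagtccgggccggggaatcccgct
Irf2, chr8:46739495-46739744, plus strand: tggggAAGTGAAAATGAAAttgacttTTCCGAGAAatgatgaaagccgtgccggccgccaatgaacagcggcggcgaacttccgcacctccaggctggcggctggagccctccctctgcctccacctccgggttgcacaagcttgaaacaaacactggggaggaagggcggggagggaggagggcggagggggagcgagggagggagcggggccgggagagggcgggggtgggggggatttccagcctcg

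All 9 genes had a promoter in the table, with 12 annotated starts in all. Stat2 holds the longer element on the other strand, as TTTCAGTTTC, at positions -222 to -213 counted from its start. Irf2 holds it as GAAAATGAAA at positions -241 to -232, and a STAT element, TTCCGAGAA, lies close to it. Of all 32851 promoters cut to the same 250 bases, 2.98% hold the longer element and 21.3% hold AANNGAAA. No other of these 9 genes has either motif in these windows. The STAT element, found in 7.02% of all promoters, occurs in Irf2, in Irf1 as TTCCCCGAA at positions -90 to -82, and in Irf8 as TTCTCGGAA and TTCAGAGAA. The Irf7 window holds none of the 3 motifs. A match describes letters only, and a window without one says nothing of binding.

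Stat2 and Irf7 rose in FAPs treated with 5'ss-VMO, and the other 7 genes did not pass the test in that comparison. All values are on the log2 scale of the array software, and a difference of 1 is a doubling. A gene was called at an adjusted p under 0.05 from limma with Benjamini-Hochberg adjustment over all 14953 genes tested, two-sided. Those are the named genes with a mean at or above a log2 floor of 5.209, and all 9 genes passed this filter. In 5'ss-VMO against control VMO 2 of 9 were called, both higher, where 0.582% of all genes tested were called, 0.502% higher and 0.0803% lower. The arrays hold RNA of whole preparations, so fewer cells of a type and less RNA per cell cannot be told apart.

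**Figure D1:**
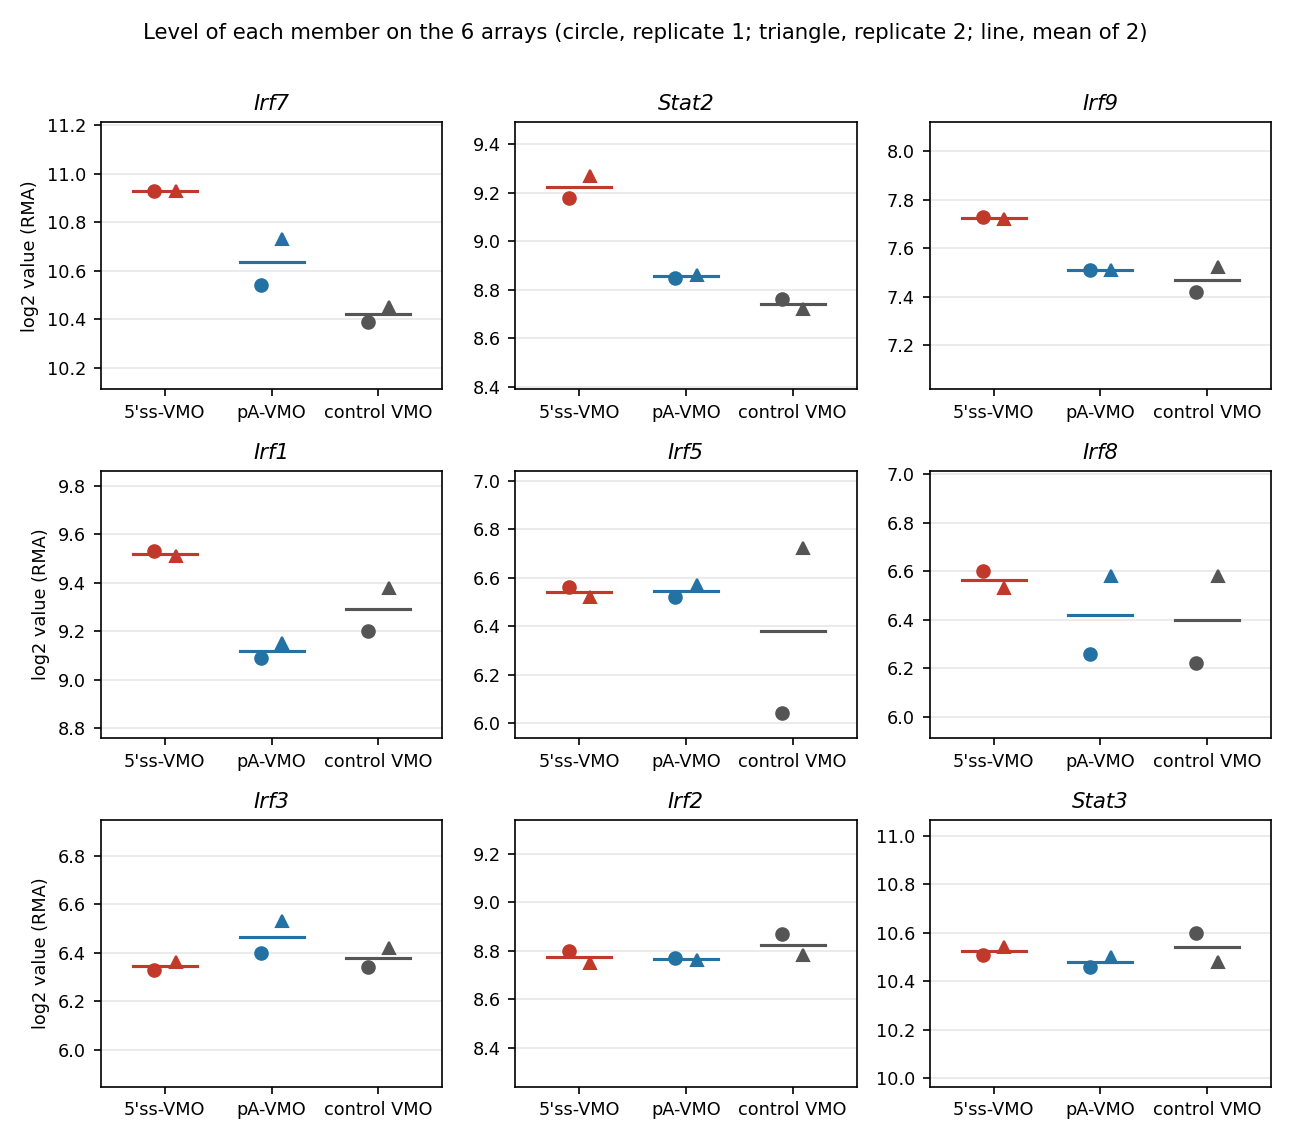
Log2 level (vertical axis) of each of the 9 genes on the 6 arrays, with 5'ss-VMO on the left, pA-VMO in the middle and control VMO on the right of each panel; circles are replicate 1, triangles replicate 2 and lines the mean of 2 arrays. All panels span the same range of log2 units. The 3 groups do not overlap for Irf7, Stat2 and Irf1, with pA-VMO in the middle for Irf7 and Stat2 and lowest for Irf1. The order seen for Irf7 and Stat2 was found in 2.94% of all genes tested.

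Stat2 encodes the STAT subunit that is particular to the response to type I and type III interferon. Its level was 9.18 and 9.27 on the 5'ss-VMO arrays, 8.85 and 8.86 with pA-VMO, and 8.76 and 8.72 on the control arrays. The 5'ss-VMO arrays were the highest, and none of the 3 groups overlapped. With 5'ss-VMO Stat2 rose by 0.49 ± 0.066 (log2, SE, n = 2 arrays per group; 1.4-fold, limma adjusted p = 0.0166), with a 95% interval of 0.34 to 0.63. With pA-VMO it lay 0.11 above control (interval -0.04 to 0.26, limma adjusted p = 0.552).

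Irf9 encodes the DNA-binding subunit of ISGF3. It stood at 7.73 and 7.72 on the 5'ss-VMO arrays, 7.51 and 7.51 with pA-VMO, and 7.42 and 7.52 on the control arrays. The 5'ss-VMO arrays lay above all others, while the pA-VMO arrays lay within the range of the control arrays. The difference of 5'ss-VMO from control was 0.26 ± 0.066 (interval 0.11 to 0.41) and did not pass the test over all genes (limma adjusted p = 0.157, unadjusted p = 0.00369). That of pA-VMO was 0.04 (interval -0.11 to 0.19).

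Irf7 encodes the factor that amplifies type I interferon production once interferon has acted on a cell. Its level was 10.93 on both 5'ss-VMO arrays, 10.54 and 10.73 with pA-VMO, and 10.39 and 10.45 on the control arrays. Again no groups overlapped, with pA-VMO between the other groups. Irf7 rose by 0.51 ± 0.078 with 5'ss-VMO (1.42-fold, interval 0.33 to 0.69, limma adjusted p = 0.0283). With pA-VMO it lay 0.22 ± 0.078 above control (interval 0.04 to 0.39, limma adjusted p = 0.357, unadjusted p = 0.0209). Stat2 and Irf7 were the members in which control VMO, pA-VMO and 5'ss-VMO stood in that order from low to high with no overlap, a pattern found in 2.94% of all genes tested.

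The calls of Stat2 and Irf7 needed all 4 arrays of that comparison. With 5'ss-VMO replicate 1 or 2 left out, the limma adjusted p of Stat2 was 0.054 or 0.121 and that of Irf7 was 0.119 or 0.147. With control replicate 1 or 2 left out, it was 0.128 or 0.108 for Stat2 and 0.188 or 0.113 for Irf7. The differences themselves stayed between 0.44 and 0.53 for Stat2 and between 0.48 and 0.54 for Irf7 with any array left out. Without a filter on low values the adjusted p was 0.0619 for Stat2 and 0.0912 for Irf7.

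Irf1, the interferon gamma-induced activator, lay on opposite sides of control with the 2 reagents. It stood at 9.53 and 9.51 with 5'ss-VMO, 9.09 and 9.15 with pA-VMO, and 9.2 and 9.38 on the control arrays. The 5'ss-VMO arrays lay above both control arrays and the pA-VMO arrays below them. Neither difference passed the test: it was 0.23 ± 0.076 with 5'ss-VMO (interval 0.05 to 0.4, limma adjusted p = 0.251) and -0.17 ± 0.076 with pA-VMO (limma adjusted p = 0.43, unadjusted p = 0.0478). On a second, dimmer probe set annotated to Irf1 alone, the 5'ss-VMO arrays overlapped both other groups. The pA-VMO arrays lay narrowly below the control arrays there too. This probe set read 6.36 and 6.17 with 5'ss-VMO, 6.17 and 6.25 with pA-VMO, and 6.32 and 6.27 with control VMO. With the mean of both probe sets in place of the brighter one, the difference of 5'ss-VMO from control was 0.1 (limma adjusted p = 0.577). That of pA-VMO from control was then -0.13 (limma adjusted p = 0.517).

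Irf2, the constitutively expressed antagonist of Irf1, stood at 8.8 and 8.75 on the 5'ss-VMO arrays, 8.77 and 8.76 with pA-VMO, and 8.87 and 8.78 on the control arrays. All 6 values lay close together, and its differences from control were -0.05 (interval -0.2 to 0.1) with 5'ss-VMO and -0.06 (interval -0.21 to 0.09) with pA-VMO. Irf3, the latent factor that sensors activate without new synthesis, stood at 6.33 and 6.36 with 5'ss-VMO, 6.4 and 6.53 with pA-VMO, and 6.34 and 6.42 with control VMO. Its differences were -0.04 (interval -0.2 to 0.12) and 0.08 (interval -0.08 to 0.24) from control with 5'ss-VMO and pA-VMO. Changes as large as the 0.49 of Stat2 lie outside these intervals for Irf2 and Irf3.

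Irf5 and Irf8, the factors best known from myeloid cells, had the widest spread between the control arrays. Irf5 stood at 6.56 and 6.52 on the 5'ss-VMO arrays and 6.52 and 6.57 on the pA-VMO arrays, but at 6.04 and 6.72 on the control arrays. Control replicate 1 was thus the lowest and control replicate 2 the highest of the 6 arrays. Its difference of 5'ss-VMO from control was 0.16 ± 0.173 (interval -0.23 to 0.55), and it was -0.18 without control replicate 1 and 0.5 without control replicate 2. Irf8 stood at 6.6 and 6.53 with 5'ss-VMO, 6.26 and 6.58 with pA-VMO, and 6.22 and 6.58 with control VMO. Replicate 1 was low in the pA-VMO and control groups, and the groups overlapped. Its difference of 5'ss-VMO from control was 0.16 ± 0.13 (interval -0.14 to 0.45), and -0.02 without control replicate 1.

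Stat3 differed little between groups. It stood at 10.51 and 10.54 on the 5'ss-VMO arrays, 10.46 and 10.5 with pA-VMO, and 10.6 and 10.48 on the control arrays. The control arrays spanned most of the range of the other groups. The difference from control was -0.02 (interval -0.18 to 0.13) with 5'ss-VMO and -0.06 (interval -0.22 to 0.1) with pA-VMO, so changes of Stat3 as large as those of Stat2 and Irf7 with 5'ss-VMO lie outside both intervals.

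**Figure D2:**
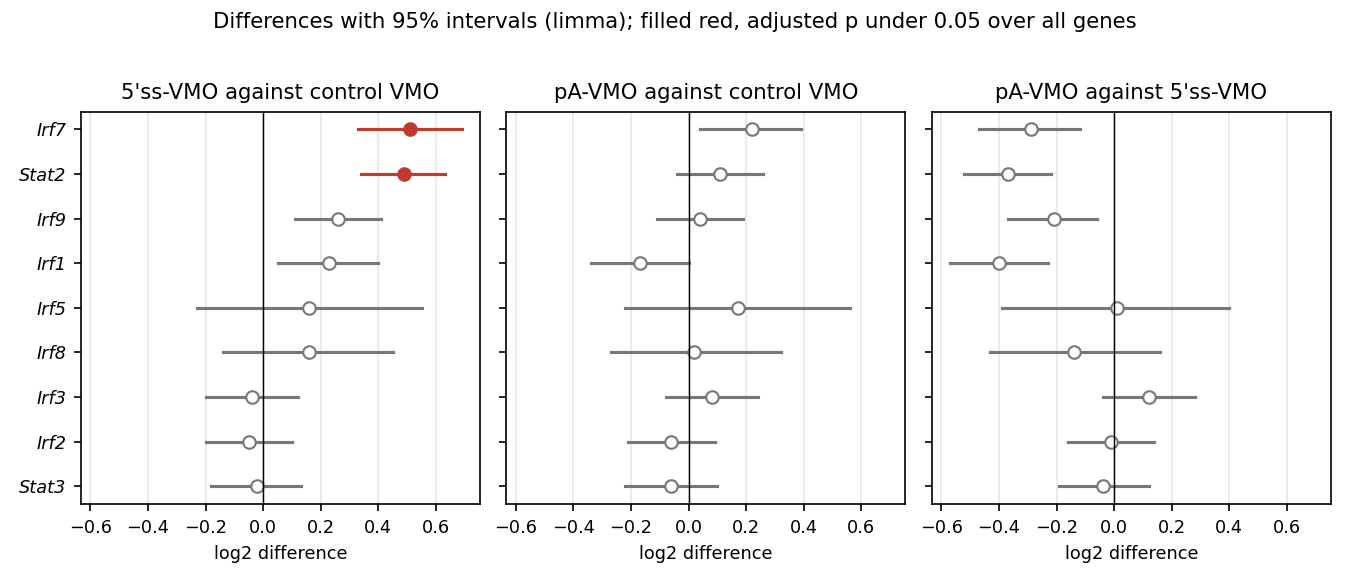
Log2 difference (horizontal axis) of each of the 9 genes in 3 panels (5'ss-VMO minus control, pA-VMO minus control and pA-VMO minus 5'ss-VMO); points are limma estimates from 2 arrays per group, bars 95% intervals, and filled red points have an adjusted p under 0.05 over all genes. Irf7 and Stat2 are filled in the left panel, at 0.51 and 0.49, and no gene is filled in the other panels.

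With 5'ss-VMO, 4 of the 9 genes had an unadjusted p under 0.05, against 13.9% of all genes, and 6 a positive difference, against 50.4%. The arrays of 4 of the 9 genes (Stat2, Irf9, Irf7 and Irf1) lay wholly above the control arrays and those of 0 wholly below, where 23.2% and 21.5% of all genes did so. The median difference of the 9 genes was 0.16, against 0.001 over all genes tested. With pA-VMO 0 of 9 genes were called by limma, against 0.00669% of all genes, and 2 of 9 (Irf7 and Irf1) had an unadjusted p under 0.05, against 11.4% of all genes. A positive difference was seen in 6 of 9, against 55.2% of all genes, and the median difference was 0.04, against 0.013 over all genes. Arrays of 2 genes (Irf7 and Stat2) lay wholly above control with pA-VMO and those of 2 (Irf1 and Irf2) wholly below, where 24.1% and 18.8% of all genes did so. The 2 comparisons share their control arrays.

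Set directly against each other, pA-VMO and 5'ss-VMO gave 0 of 9 genes that passed the test, and Irf1 and Stat2 had the lowest estimates. In pA-VMO against 5'ss-VMO 0.0602% of all genes tested were called, 0.0134% higher and 0.0468% lower with pA-VMO. The difference was positive in 2 of 9, against 51.4% of all genes. Irf1 lay at -0.4 ± 0.076 (1.32-fold lower with pA-VMO, interval -0.57 to -0.23, limma adjusted p = 0.0713), and at -0.23 (adjusted p = 0.175) with the mean of its 2 probe sets. Stat2 lay at -0.37 ± 0.066 (1.29-fold lower, interval -0.52 to -0.22, limma adjusted p = 0.0687). Irf7 was at -0.29 (interval -0.47 to -0.12, limma adjusted p = 0.138) and Irf9 at -0.21 (interval -0.37 to -0.06, limma adjusted p = 0.176). These 4 genes had an unadjusted p under 0.05, against 15.9% of all genes, and the other 5 had intervals that included 0. In 5 genes, these 4 and Stat3, the pA-VMO arrays lay wholly below the 5'ss-VMO arrays, and in 1, Irf3, wholly above, where 23.7% and 25.5% of all genes did so.

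Calls in pA-VMO against 5'ss-VMO differed between settings. With a prior variance that follows the signal level (limma with trend) the adjusted p was 0.00872 for Irf1, 0.00703 for Stat2 and 0.0331 for Irf7, with the same differences. That setting called 197 genes in all where the fit without trend called 9. Irf1 and Stat2 also passed with only genes at or above the 50th percentile of level (adjusted p = 0.0311 and 0.0273) and with arrays centred on their median (0.0425 and 0.0412).

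**Figure D3:**
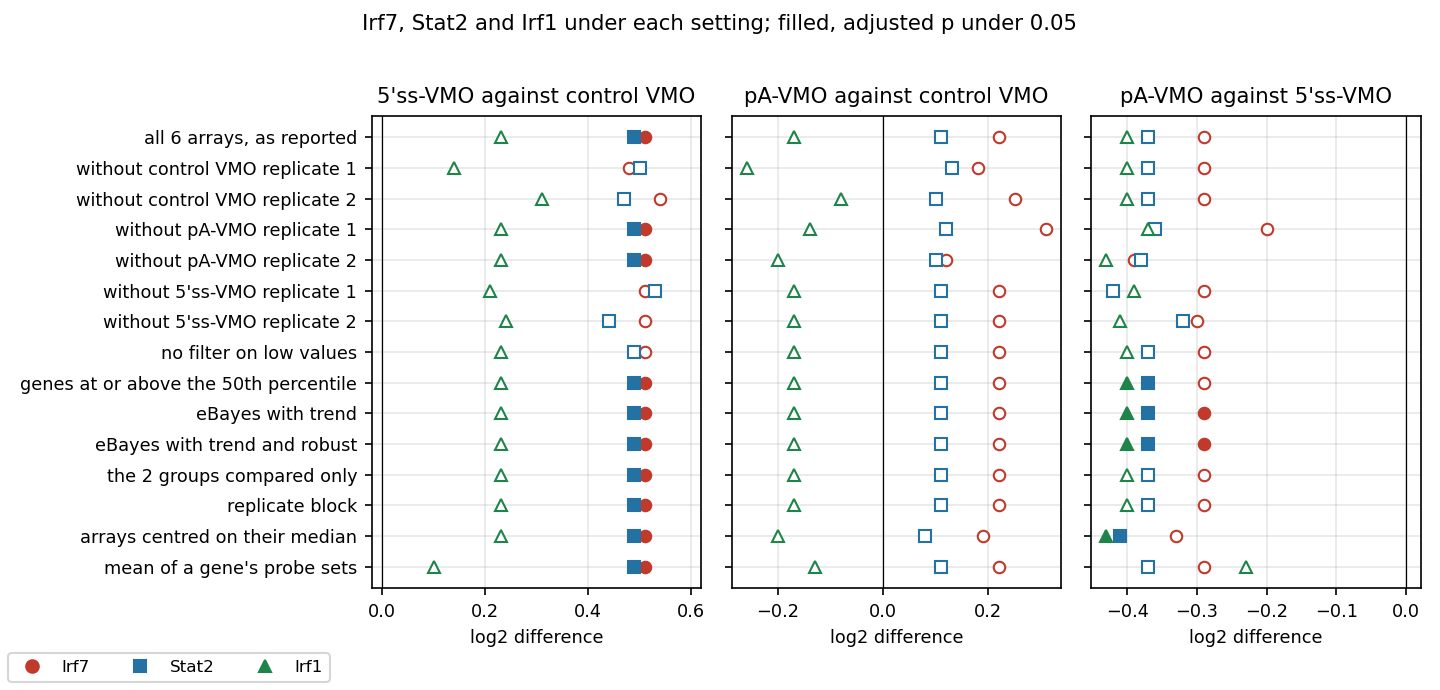
Log2 difference (horizontal axis) of Irf7 (circles), Stat2 (squares) and Irf1 (triangles) in the 3 comparisons under each of the settings named on the vertical axis; filled symbols have an adjusted p under 0.05, and horizontal axes differ between panels. Signs stay the same in every row, while the calls of Irf7 and Stat2 with 5'ss-VMO are lost when any array of that comparison is left out.

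Of 33 tested genes commonly induced through ISGF3, 15 were called higher with 5'ss-VMO and 0 lower, where 0.502% of all genes were called higher. All 33 had a positive difference, where 50.4% of all genes did. The median was 0.45 and the differences ran from 0.01 to 0.99, so some of these genes hardly differed from control. The sensor of double-stranded RNA Oas2 rose by 0.82 ± 0.066 (limma adjusted p = 0.00215) and Oas1b by 0.63 (adjusted p = 0.00551). Trim30a, Dhx58, Zbp1 and Ifit2 rose by 0.54, 0.62, 0.58 and 0.73 (adjusted p = 0.0105 each). The number called was 3 or 2 with 5'ss-VMO replicate 1 or 2 left out, 1 or 4 with control replicate 1 or 2 left out, and 6 with no filter on low values. With pA-VMO 0 of the 33 were called by limma, 29 had a positive difference and the median was 0.14, and Oas2 lay at 0.37 (adjusted p = 0.204). Of all genes tested, 51.4% had a positive difference and 0.0468% were called lower in pA-VMO against 5'ss-VMO. In that comparison all 33 lay lower with pA-VMO, with a median of -0.27. The 1 called, Ifit3b, was lower with pA-VMO by 0.73 on the log2 scale (difference -0.73, adjusted p = 0.0433), at 6.58 and 6.84 with pA-VMO against 7.4 and 7.47 with 5'ss-VMO. Some probes of the Oas, Ifit, Gbp and Ifna families may also read near-identical relatives, so values of single members are uncertain. This list and those below were chosen with earlier results of these data known and give no independent evidence of a direction.

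A list of 19 tested genes was typical of interferon gamma and IRF1, such as guanylate-binding proteins and antigen-processing genes. With 5'ss-VMO 4 of them were called higher and 0 lower, where 0.502% of all genes were called higher. The difference was positive in 16 and negative in 3, with a median of 0.29 and a range of -0.23 to 0.86. Those called were the chemokines Cxcl9, by 0.53 (adjusted p = 0.0131), and Cxcl11, by 0.81 (0.0151), and the GTPases Gbp3, by 0.53 (0.0151), and Gbp4, by 0.86 (0.0344). The number called was 1 or 0 with 5'ss-VMO replicate 1 or 2 left out, 0 or 1 with control replicate 1 or 2 left out, and 0 with no filter on low values. With pA-VMO 0 of 19 were called by limma and the median was 0.03. In pA-VMO against 5'ss-VMO 17 of 19 lay lower and 2 higher, where 51.4% of all genes had a positive difference. None was called by limma, with Cxcl11 at -0.61 and Gbp3 at -0.4 (adjusted p = 0.0687 each).

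**Figure D4:**
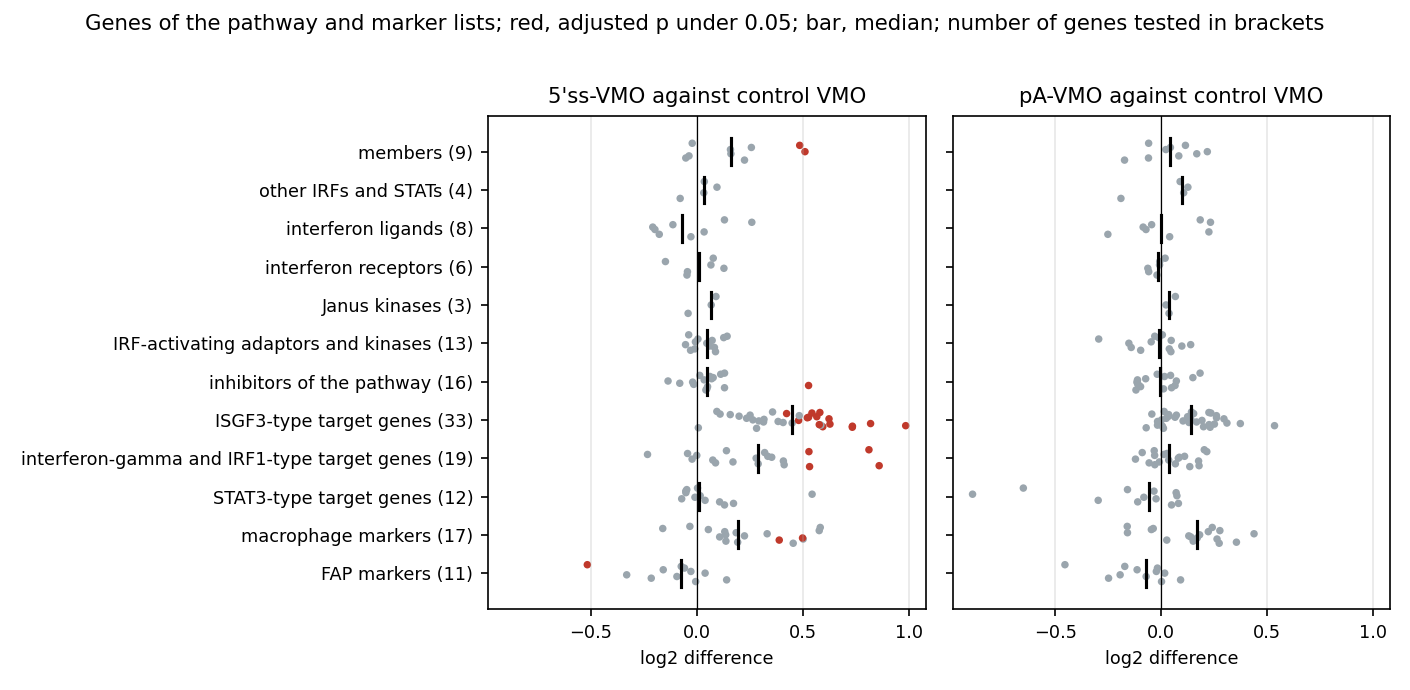
Log2 difference from control VMO (horizontal axis) of each tested gene of the pathway and marker lists with 5'ss-VMO (left) and pA-VMO (right); red points have a limma adjusted p under 0.05, black bars are medians and the number of genes tested stands in brackets. With 5'ss-VMO most red points lie among the members and the ISGF3-type and interferon gamma-type target genes, where medians are 0.16, 0.45 and 0.29; others are Usp18, C1qc, C1qa and, below 0, Dpp4, and with pA-VMO there are none.

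No gene of the interferon ligand, receptor, Janus kinase and adaptor lists was called. Of 6 interferon receptor genes 0 were called in any comparison, with medians of 0.01 with 5'ss-VMO and -0.01 with pA-VMO. The type I receptor subunit gene Ifnar1 stood at 8.94 and 9 with 5'ss-VMO, 8.99 and 9 with pA-VMO, and 9.06 and 8.97 with control VMO. The kinases Jak1, Jak2 and Tyk2 had differences between -0.04 and 0.09 with 5'ss-VMO, with 0 called. Of 16 interferon genes on the array 8 were below the floor, Ifnb1 among them, and of the 8 tested 0 were called. Ifng, the gene of interferon gamma, lay at 0.26 with 5'ss-VMO (adjusted p = 0.181) and at 0.23 with pA-VMO (adjusted p = 0.314), close to the floor on every array. Of 13 adaptors and kinases that activate IRFs 0 were called. Traf6, a ubiquitin ligase of Toll-like receptor signalling, lay at -0.3 with pA-VMO against either group (adjusted p = 0.239 against control and 0.0991 against 5'ss-VMO). Among 4 other tested genes of the 2 families, Irf4, Stat5a, Stat5b and Stat6, 0 were called and differences with 5'ss-VMO ran from -0.08 to 0.1. Stat4 was below the floor.

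Of 16 inhibitors of the pathway, Usp18, which is also in the ISGF3-type list, was the 1 called. That call was in 5'ss-VMO against control VMO, where 0.502% of all genes were called higher. Usp18 removes the ubiquitin-like protein ISG15 and binds IFNAR2 to damp type I signalling, and is itself induced through ISGF3. It stood at 9.1 and 9.07 with 5'ss-VMO, 8.58 and 8.67 with pA-VMO, and 8.52 and 8.6 with control VMO. Only the 5'ss-VMO arrays stood apart. Usp18 rose by 0.53 ± 0.067 with 5'ss-VMO (limma adjusted p = 0.0131) and lay at -0.46 in pA-VMO against 5'ss-VMO (adjusted p = 0.0626). Socs1 and Socs3, which block Janus kinases, lay at 0.04 and 0.13 with 5'ss-VMO (adjusted p = 0.865 and 0.442).

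Around Stat3, 10 genes of interleukin-6 family cytokines and their receptors had 0 calls in the 3 comparisons. Il6 itself lay at 0.13 with 5'ss-VMO and -0.19 with pA-VMO (adjusted p = 0.482 and 0.403). Of 12 genes typical of STAT3 activity 0 were called against control with either reagent. In pA-VMO against 5'ss-VMO, where 0.0468% of all genes were called lower, 1 was called lower with pA-VMO. This was Saa3, an acute-phase serum amyloid gene that has close paralogs. Saa3 stood at 7.3 and 7.54 with pA-VMO and 8.78 and 8.93 with 5'ss-VMO, and at 8.02 and 8.6 with control VMO. The pA-VMO arrays were the lowest and the 5'ss-VMO arrays the highest, and Saa3 lay at -1.43 ± 0.163 in pA-VMO against 5'ss-VMO (limma adjusted p = 0.0249). Lcn2, the lipocalin that binds bacterial iron carriers, lay at -0.65 in pA-VMO against control (adjusted p = 0.204) and -0.65 against 5'ss-VMO (adjusted p = 0.0718).

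The search for genes with like profiles left out predicted and clone-named genes, olfactory and vomeronasal receptors, microRNAs and small RNAs. Among the rest, the genes whose mean-centred profiles over the 6 arrays were most like those of Irf7 and Stat2 included other interferon-induced genes. The measure was the root-mean-square difference in log2 units, over arrays that share the same 3 groups. For Irf7 they were Cxcl9 at 0.03, Slfn9 at 0.031, Agrn at 0.038 and Zbp1 at 0.042. For Stat2 they were the noncoding RNA gene Rian at 0.037, Ms4a4d and Nmi at 0.038 and Samd9l at 0.044. Stat2 and Irf7 were 0.078 apart, closer to each other than either was to any other of the 9 genes. Both were searched because they were called higher in the same comparison, so this closeness is not a separate observation. Irf9 came next, at 0.12 from Irf7 and 0.108 from Stat2, and Irf2, Irf3, Irf5 and Stat3 were all more than 0.2 from each.

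Of 17 macrophage markers, all above the floor, 2 rose with 5'ss-VMO, where 0.502% of all genes were called higher. They were the complement genes C1qc (0.5, limma adjusted p = 0.0249) and C1qa (0.39, adjusted p = 0.0472). A positive difference was seen in 15 of 17, against 50.4% of all genes, while Cx3cr1 lay at -0.16 and Mertk at -0.03. The median difference of this list was 0.19 with 5'ss-VMO and 0.17 with pA-VMO. Its mean log2 level was 6.9 and 6.87 with 5'ss-VMO, 6.77 on both pA-VMO arrays, and 6.54 and 6.72 with control VMO. Control replicate 1, the array with the lowest Irf5 and Irf8, was also the lowest here, whereas both pA-VMO arrays had the same mean although their Irf8 values differed. The part of macrophages in the differences of Stat2, Irf7, Irf5 and Irf8 was not tested. Markers of dendritic cells (5 tested of 7), B cells (2 of 4), T and NK cells (4 of 7) and neutrophils (3 of 6) had 0 calls, and the rest of each list was below the floor. Of 5 endothelial markers tested 1 rose with 5'ss-VMO, Cdh5 by 0.7 (limma adjusted p = 0.00551), where 0.502% of all genes were called higher. The difference was positive in 3 of the 5 and negative in 2, Tek at -0.19 and Tie1 at -0.025. The mean log2 level of that list covers 6 genes, 1 of them below the floor. It was 6.07 and 6.1 with 5'ss-VMO, 5.95 and 5.92 with pA-VMO, and 5.72 and 5.92 with control VMO. All 5 satellite cell markers had a positive difference with 5'ss-VMO (median 0.34, 0 called). Their mean level was 6.71 and 6.58 with 5'ss-VMO, 6.38 and 6.42 with pA-VMO, and 6.27 and 6.42 with control VMO. The part of these cells in the differences of Stat2 and Irf7 was not tested either.

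Markers of the labelled cell type were present at high levels. All 11 FAP markers on the array were above the floor, with a mean log2 level of 10.97 to 11.12 over the 6 arrays. With 5'ss-VMO 1 of them, Dpp4, fell (difference -0.52, limma adjusted p = 0.0318), where 0.0803% of all genes were called lower. The difference was negative in 9 of the 11 with 5'ss-VMO, Lum at -0.33 among them (adjusted p = 0.0636), and in 8 of the 11 with pA-VMO, with Dpp4 at -0.45, and the median was -0.07 with either reagent. Pdgfra stood at 11.31 and 11.29 with 5'ss-VMO, 11.29 and 11.32 with pA-VMO, and 11.37 and 11.24 with control VMO (limma adjusted p = 0.984 and 0.997 against control). Which part of the transcript its probes read was not analysed here, so these levels do not check the action of the reagents. Replicate arrays differed by an SD over genes of 0.13 with 5'ss-VMO, 0.12 with pA-VMO and 0.13 with control VMO, and the lowest correlation between any 2 arrays was 0.99. Precision is limited by having so few arrays: the median SE of a group difference was 0.074, and with 2 arrays a side the smallest p of an exact permutation test is 0.333.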

How the data were processed

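RNA of FAPs was measured on 6 Affymetrix Mouse Gene 1.0 ST arrays, 2 in each of 3 groups taken from the labels. Per the labels' protocols, 100 ng of total RNA was used for an array. The values used are those the authors deposited, in log2 units. The submitters' processing notes name RMA and Affymetrix Expression Console, and no version or setting is given in the sources. RMA gives all arrays the same distribution, so a change in total RNA per cell cannot be seen. The labels do not give array batches.

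Of 35556 probe sets, 21789 had 1 symbol in the platform annotation, 1621 several and 12146 none. By gene ID 21698 matched RefSeq (GRCm38.p6), and 0 symbols changed. The probe set with the highest mean stood for a gene. Genes below the 25th percentile of the mean (log2 5.209) were left out, which left 14953. Using limma 3.58.1 (R 4.3.3), a mean was fitted for every group over all 6 arrays without a block (3 residual and 6.06 prior degrees of freedom), and the procedure was tested on simulated data. P-values, intervals and SE rest on the spread between the 2 pools of a group, shared over the 3 groups. For each gene limma draws this spread towards that of all genes tested. Same-numbered arrays did not deviate together (r = -0.102 between control and pA-VMO, 0.021 between control and 5'ss-VMO, -0.035 between the reagents). These values cannot tell whether same-numbered pools were handled together. Members, gene lists and the rule for named genes were chosen with earlier results of these data known. The rule names the members and, from each list, the called genes (up to 6, smallest p first) or else the 2 with the smallest p. It also names the 4 genes most like a called member, leaving out predicted and clone-named genes, olfactory and vomeronasal receptors, microRNAs and small RNAs. Genes given beyond this rule (Ifnar1, Ifnb1, Socs1, Socs3, Pdgfra, Stat4, Cx3cr1, Mertk, Tek, Tie1) were chosen after their values were seen.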

Additional observations from a re-analysis of the deposited data

How the results depend on the processing

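The values rest on 2 arrays a group, and leaving out an array leaves 1 in its group, which is then assumed to vary like the others. In 5'ss-VMO against control VMO 87 genes were called, and 8 to 76 with 1 array left out, 24 with no filter on low values, 181 with genes at or above the 50th percentile, 266 with trend and 265 with trend and robust. Of the 9 genes 2 were called there, 0 to 2 with 1 array left out and 0 with no filter. In pA-VMO against control VMO 1 gene was called, and 0 to 2 with 1 array left out, 0 with no filter, 51 with trend and 49 with trend and robust. In pA-VMO against 5'ss-VMO 9 genes were called (2 higher, 7 lower), and 1 to 18 with 1 array left out, 3 with no filter, 102 at the 50th percentile, 197 with trend, 186 with trend and robust, 15 with the mean of a gene's probe sets and 102 with arrays centred on their median (11 higher, 91 lower). Centring moved no median by more than 0.03. Of the 9 genes 0 were called there, but 2 at the 50th percentile (Irf1, Stat2), 3 with trend, 3 with trend and robust (Irf1, Stat2, Irf7), and 2 with centring. The cause of these shifts was not tested.

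The replicate block called 23 genes in pA-VMO against 5'ss-VMO and changed no call of the 9 genes. Replicates with a number in common did not deviate together. A crossed pairing of pA-VMO and control arrays, chosen after seeing the data, called 1 gene and 0 of the 9.

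The ISGF3-type count of 15, recomputed after seeing the data, was 1 to 14 with 1 array left out, 6 with no filter, 26 with trend and 26 with trend and robust. The interferon gamma-type count of 4 was 0 to 4, 0, 10 and 10 under these settings, and 9 at the 50th percentile.

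Signs of uncalled members changed when 1 array was left out. In 5'ss-VMO against control VMO the range was -0.08 to 0 for Irf3, -0.18 to 0.5 for Irf5, -0.02 to 0.34 for Irf8 and -0.08 to 0.04 for Stat3. In pA-VMO against control VMO it was -0.18 to 0.51 for Irf5, -0.16 to 0.2 for Irf8, -0.01 to 0.1 for Irf9 and -0.12 to 0 for Stat3. In pA-VMO against 5'ss-VMO it was -0.03 to 0.01 for Irf2, -0.02 to 0.03 for Irf5 and -0.3 to 0.02 for Irf8. With centring Irf8 stood at -0.01 in pA-VMO against control VMO and Irf5 at -0.03 in pA-VMO against 5'ss-VMO. Stat2, Irf7 and Irf1 kept their sign in all settings run.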
